A study of Caenorhabditis elegans with 2 samples.

Results

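The heterochronic genes set the order in which larval cells of the nematode Caenorhabditis elegans divide and mature. They act as a timer: LIN-14 and LIN-28 hold cells in early larval programmes, HBL-1 and LIN-41 hold them in later ones, and LIN-29 starts the switch to the adult state once its repressors are down. MicroRNAs such as lin-4 and let-7 lower these repressors in turn, and LIN-42, a relative of the fly clock protein Period, acts in step with the moults. The L4 stage lies just before the adult switch.

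This account covers 8 of these genes, taken as a named list out of 19973 annotated protein-coding genes: lin-14, lin-28, lin-29, lin-41, lin-42, lin-46, lin-66 and hbl-1. For each gene, the summits of ChIP-seq intervals were collected in the gene body and 5 kb on either side. The protein mapped was SPR-3, a zinc finger protein known genetically from suppressors of presenilin mutants. There was 1 group, mixed-sex L4 larvae of strain OP703 at 49 hours after release from L1 starvation, in 2 biological replicates. All worms carried the unc-119(tm4063) mutation and the wgIs703 transgene, which joins spr-3 to TY1, EGFP and 3xFLAG tags and brings a rescuing unc-119(+) copy. The endogenous spr-3 gene was not stated to be removed, chromatin came from whole worms, and the fusion protein was pulled down through GFP. There was no untagged or second condition, so replicates were set beside each other and the members beside all protein-coding genes, with no test between groups. Binding data hold no RNA, so the labelled stage could not be checked from marker genes.

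The deposit held 30000 candidate intervals for each replicate and 30000 for the pool, and a thresholded list of 945 summits that the authors derived from these by the irreproducible discovery rate (IDR). Signal is the peak caller's own value for ChIP against control, used here only to rank intervals within a list, where rank 1 is the highest. The 945 thresholded summits were the 945 highest of the pool, with signals from 138.0 to 2033.2 and a median of 183.7. The pooled median was 59.9, and the deposit describes the 30000-interval lists as peaks and background, the input to IDR. Read depth is unknown, and coordinates are 1-based on ce11 with Ensembl WBcel235 genes.

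SPR-3 sites that passed the threshold were found at 2 of the 8 genes, lin-42 and lin-46. lin-42 had 2 such sites, both in introns far from its annotated 5′ end, and lin-46, which encodes a gephyrin-like protein that opposes HBL-1, had 1 upstream of its start. The other 6 genes had weaker candidates only. The deposited −log10 q-value, which is higher for a surer call, was 3.1 in the pool at each thresholded site of lin-42 and lin-46. At the highest pooled candidate of each of the other 6 genes it ran from 1.42 at lin-66 down to 0.28 at hbl-1. Of all protein-coding genes, 12.1% had a thresholded summit in the same kind of window, and 1.9% had 2 or more. lin-42 was the member with 2, and among genes of its length class, over 15 and up to 25 kb, 3.47% had 2 or more. Longer genes had at least 1 more often, with 11.3% of genes of up to 5 kb and 17.4% of those over 15 and up to 25 kb, and the median body was 6802 bp for the members and 2027 bp for all protein-coding genes. With 8 members, a count of 2 is not read as differing from that background.

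**Figure D1:**
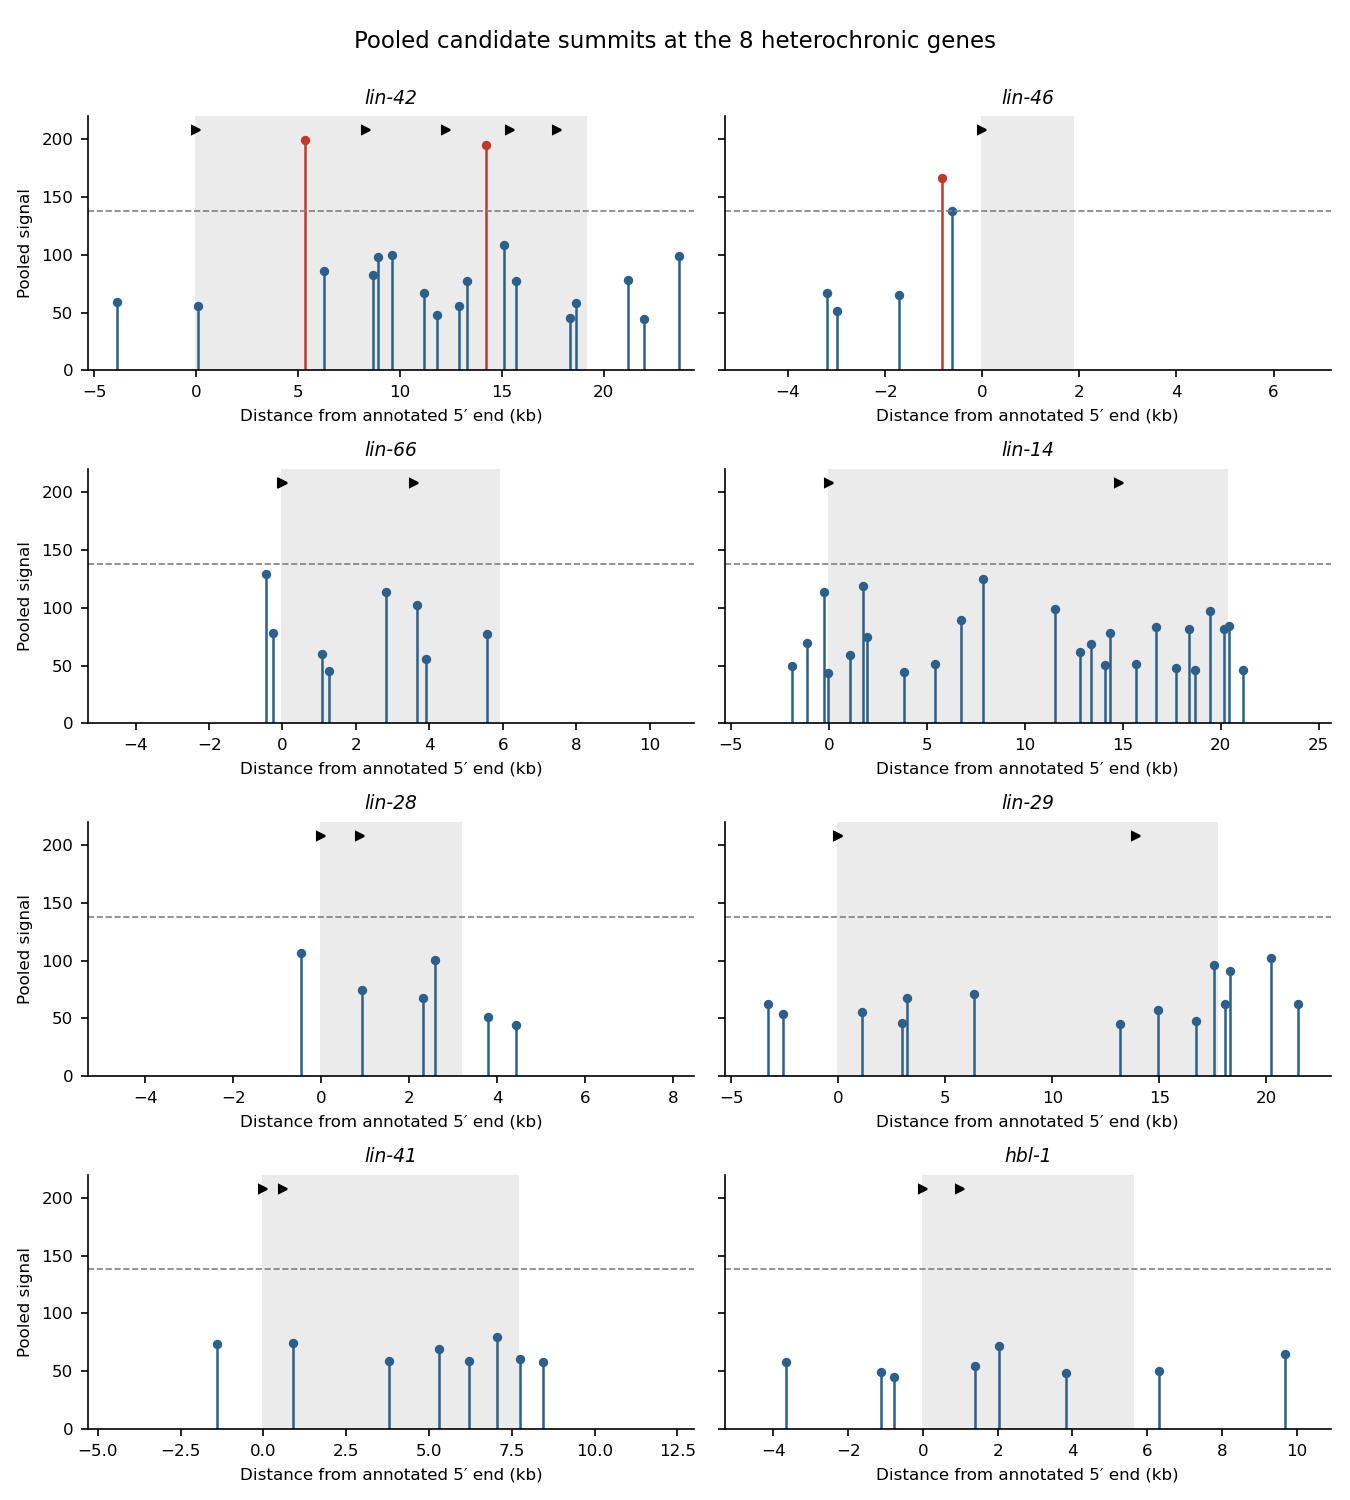
Signal of each pooled candidate (vertical axis, the peak caller's value) against distance from the annotated 5′ end in kb (horizontal axis), 1 panel per gene, ordered by highest pooled rank. Red marks thresholded summits, blue other candidates, grey the gene body, arrowheads the annotated transcript 5′ ends and the dashed line the lowest thresholded signal, 138.0. The red summits stand at lin-42 (199.2 and 195.1) and at lin-46 (166.5).

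The sequences below show what lay under the thresholded summits and under the highest candidate of lin-66, the next gene by pooled rank. Each is the plus strand of WBcel235 from RefSeq, 5′ to 3′, in a 151 bp window around the summit. The lin-46 window was shortened to 119 bp to leave out the annotated 5′ untranslated region of the neighbouring gene R186.8. Capitals mark the letters GACGC, GAGACGCA or AGAGAGAG on either strand, words that were picked in earlier work on these same sites.
lin-42, first intronic site, chrII:1246954-1247104: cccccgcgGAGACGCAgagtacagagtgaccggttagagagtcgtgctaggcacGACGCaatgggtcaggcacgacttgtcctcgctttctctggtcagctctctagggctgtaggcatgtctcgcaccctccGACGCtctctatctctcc
lin-42, second intronic site, chrII:1238065-1238215: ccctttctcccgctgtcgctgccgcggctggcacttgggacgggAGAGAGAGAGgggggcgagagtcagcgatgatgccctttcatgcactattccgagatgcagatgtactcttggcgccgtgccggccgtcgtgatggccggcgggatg
lin-46, upstream site, chrV:12967983-12968101: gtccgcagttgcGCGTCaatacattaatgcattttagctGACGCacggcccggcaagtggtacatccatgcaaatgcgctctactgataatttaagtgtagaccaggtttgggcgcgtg
lin-66, upstream candidate, chrIV:13887555-13887705: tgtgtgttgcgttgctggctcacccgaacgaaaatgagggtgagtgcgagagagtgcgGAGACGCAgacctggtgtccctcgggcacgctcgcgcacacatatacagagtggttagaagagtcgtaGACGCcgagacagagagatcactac

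The word GAGACGCA stood in the first lin-42 window, centred 63.5 bp from the summit, and in the lin-66 window, centred 13.5 bp from it. The second lin-42 window held AGAGAGAG in overlapping copies and no GACGC. The lin-46 window held GACGC on each strand, centred 2 bp and 29 bp from the summit. Over all 93 pooled candidates of the members, GAGACGCA (which contains GACGC) occurred in 6 windows of 151 bp (6.45%), against 75 of the 945 thresholded windows (7.94%) and 2.03% of all 30000 pooled windows. AGAGAGAG occurred in 4 (4.3%), against 6.03% and 2.13%. GACGC occurred in 18 (19.4%), against 32.2% and 15% of those sets. GCGCCAGC, a further word from the same earlier work, occurred in 0 of the 93, against 4.44% and 0.463%. These matches describe letters in fixed windows, and the windows of the members were also richer in G and C than the genome, with a median of 42.4% against 41.7% for all pooled windows and 35.4% for the genome.

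lin-42 (WBGene00018572, chrII:1233236-1252359, minus strand) encodes the Period-like protein and had the highest candidates of the 8 genes in the pool and in replicate 1, while in replicate 2 the highest was at lin-66 (rank 386). Its first thresholded interval, chrII:1246814-1247243, had a pooled signal of 199.2 (rank 384), with a signal of 128.3 in replicate 1 (rank 222) and 75.2 in replicate 2 (rank 991). The second, chrII:1237925-1238354, had 195.1 (rank 412), with 101.9 in replicate 1 (rank 405) and 88.7 in replicate 2 (rank 607). Both replicates thus held both sites, and the second lay among the 945 highest of each. The first site missed that mark in replicate 2.

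The annotation gives lin-42 7 transcripts with 5 different 5′ ends, and the sites can be placed against each. The first summit lay 5330 bp downstream of the 5′ end of the longest transcripts and 2994 bp upstream of that shared by F47F6.1b.1 and F47F6.1c.1. The second summit lay 14219 bp downstream of the longest transcripts' end and 1171 bp upstream of the start of F47F6.1a.1. A weaker pooled candidate of signal 108.9 (rank 1961) lay closer to that start, 283 bp upstream, with rank 7044 in replicate 1 and rank 1561 in replicate 2. At the annotated 5′ end of the gene itself, the promoter window (1000 bp upstream to 200 bp downstream) held 1 pooled candidate, of signal 55.9 and rank 17942. The nearest protein-coding 5′ end was that of lin-42 for 18 of its 19 pooled candidates.

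lin-46 (WBGene00003031, chrV:12968855-12970730, plus strand) is the shortest of the 8 genes, with 1 annotated transcript. Its thresholded interval, chrV:12967811-12968240, had a pooled signal of 166.5 (rank 596), with 83.2 in replicate 1 (rank 686) and 80.9 in replicate 2 (rank 793). It was among the 945 highest in both replicates, and its ranks differed less between them than those of either lin-42 site. The summit lay 829 bp upstream of lin-46, but only 44 bp upstream of R186.8, a protein-coding gene that runs the opposite way. Binding data alone do not assign it to either gene.

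A second, overlapping interval lay at chrV:12968015-12968444, with its summit 625 bp upstream of lin-46. Its pooled signal of 138.0 gave rank 947, next to the edge of the thresholded list, whose last summit had a signal of 138.04 and the first one outside it 138.03. In replicate 1 it had a signal of 70.3 (rank 1132) and in replicate 2 a signal of 79.9 (rank 828). The next was far lower, at 3202 bp upstream within srd-35, with a pooled signal of 67.4 (rank 10726) and ranks 20562 and 8053 in replicates 1 and 2. All 5 pooled candidates of lin-46 lay upstream of the gene and none in its body, and the nearest 5′ end was that of another gene for all 5. Of all protein-coding genes, 2.83% had a thresholded summit in the promoter window. lin-46 was the only 1 of the 8 genes with one.

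lin-66 (WBGene00001562, chrIV:13888079-13893986, plus strand), known as a brake on lin-28, had strong candidates in each replicate, at different places. The candidate 449 bp upstream had a pooled signal of 128.7 (rank 1145), with a signal of 104.1 in replicate 2 (rank 386) and 29.3 in replicate 1 (rank 21224). The candidate 2813 bp downstream of the start, in a coding exon, had a pooled signal of 113.5 (rank 1684), with 91.9 in replicate 1 (rank 542) and 30.6 in replicate 2 (rank 18973). Each was thus within the 945 highest of 1 replicate and far down the list of the other, a 55-fold and a 35-fold difference in rank. Neither passed the threshold in the pool. Another candidate, 3674 bp downstream in a coding exon, had a pooled signal of 102.1 (rank 2439), with rank 7589 in replicate 1 and rank 2350 in replicate 2.

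lin-14 (WBGene00003003, chrX:11465560-11485871, plus strand), the first target of lin-4 to be described, encodes a nuclear protein of early larval fates. It had 25 pooled candidates, 16 of them in introns, and none passed the threshold. The highest, 7855 bp downstream of the 5′ end in an intron, had a signal of 125.2 (rank 1263), with rank 1418 in replicate 1 and rank 1044 in replicate 2. The next had a signal of 118.8 (rank 1471) at 1750 bp downstream, with ranks 1880 and 2463 in replicates 1 and 2, and the third 113.7 (rank 1674) at 252 bp upstream, with ranks 2850 and 3607. These 3 ranks were close in both replicates, unlike those at lin-66. At 0.82 pooled candidates per kb of window, lin-14 was the most densely covered of the 8 genes, and 2.26% of protein-coding genes had more. A candidate in its 3′ untranslated region (signal 97.2, rank 2949) lay within 200 bp of the snoRNA gene T25C12.12.

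lin-28 (WBGene00003014, chrI:8407630-8410804, minus strand) encodes the RNA-binding protein that blocks let-7 maturation. Its highest candidate lay 460 bp upstream, with a pooled signal of 106.4 (rank 2120), a signal of 54.4 in replicate 1 (rank 2868) and 52.4 in replicate 2 (rank 3447). The next lay in a coding exon, with a pooled signal of 100.2 (rank 2629) and ranks 6038 and 6535 in replicates 1 and 2. The third, in the 5′ untranslated region of the shorter transcript F02E9.2b.1, had a signal of 74.4 (rank 7790), with rank 16908 in replicate 1 and no interval in replicate 2. The 2 higher candidates had intervals in both replicates at similar ranks, and low −log10 q-values in the pool, 0.82 and 0.69.

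lin-29 (WBGene00003015, chrII:11917642-11935343, minus strand) encodes the zinc finger factor of the larva-to-adult switch. Its 3 highest candidates lay at or beyond its 3′ end. The highest (signal 102.0, rank 2448, with ranks 4170 and 4334 in replicates 1 and 2) lay within the bodies of vps-15 and ZK930.7, 523 bp from the 5′ end of ZK930.7. The next (96.1, rank 3100) was in the 3′ untranslated region of lin-29, with rank 2383 in replicate 1 and rank 16754 in replicate 2. The third (90.9, rank 3782) lay in hmg-12, with rank 21118 in replicate 1 and rank 888 in replicate 2. No candidate of any list lay in the promoter window at the annotated 5′ end of lin-29. Against the start of its short transcript W03C9.4c.1, a pooled candidate lay 732 bp upstream (signal 45.4, rank 27627).

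lin-41 (WBGene00003026, chrI:9334800-9342496, minus strand) encodes a TRIM-NHL protein that represses lin-29 and is the classic let-7 target. Its highest pooled candidate lay in its 3′ untranslated region, with a signal of 79.4 (rank 6192) and ranks 5116 and 8303 in replicates 1 and 2. The next 2, in a coding exon 889 bp downstream of the start (74.5, rank 7762) and 1402 bp upstream of it (73.5, rank 8107), had ranks 2450 and 2530 in replicate 1 and no overlapping interval in replicate 2. No candidate lay in the promoter window at the annotated 5′ end in any list. A replicate 1 candidate (signal 25.4, rank 28206) lay 118 bp downstream of the start of the transcript C12C8.3a.2.

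hbl-1 (WBGene00001824, chrX:5822142-5827755, plus strand), which encodes a hunchback-like zinc finger repressor, had the lowest highest candidate of the 8 genes in the pool and in replicate 1, but not in replicate 2. Its highest pooled candidate, in a coding exon 2039 bp downstream of the start, had a signal of 72.0 (rank 8703), with rank 12226 in replicate 1 and rank 3032 in replicate 2. The next had a signal of 65.0 (rank 11993) within acp-5, and the third 57.7 (rank 16544) at 3669 bp upstream, with rank 6475 in replicate 1 and no interval in replicate 2. Of all protein-coding genes, 57.1% had a higher best candidate in their window than hbl-1, and 5.56% a higher one than lin-42. These shares are not matched for length, and the body of lin-42 is 19.1 kb against a median of 2027 bp.

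**Figure D2:**
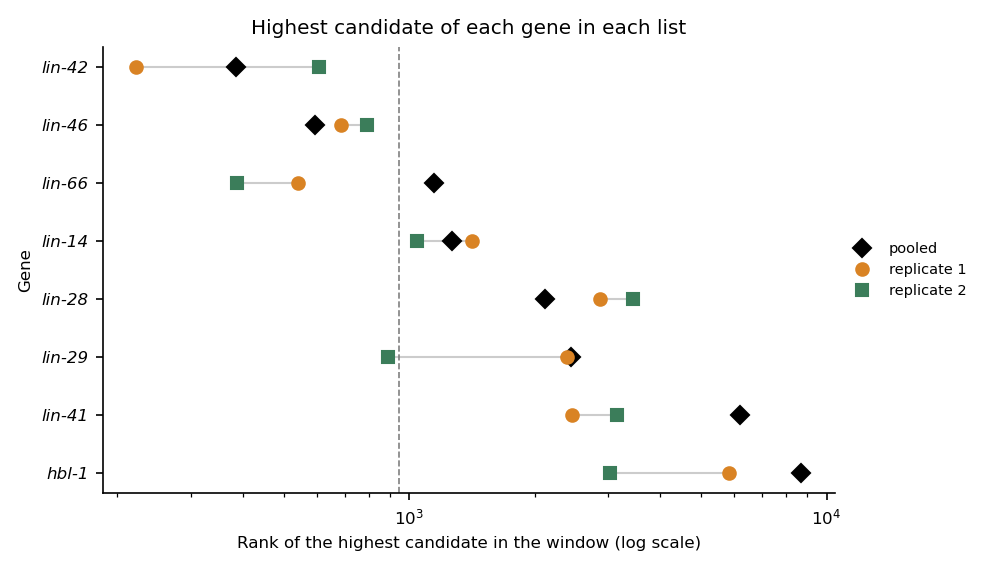
Rank of the highest candidate in the window of each gene (horizontal axis, log scale, 1 is the highest) in the pool (diamonds), replicate 1 (circles) and replicate 2 (squares), with the grey line joining the replicates, whose highest candidates can lie at different places, and the dashed line at rank 945. lin-42, lin-46 and lin-66 lie left of the line in both replicates, and for lin-66 the pooled value, 1145, lies right of both.

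By the highest pooled candidate, the order was lin-42 (rank 384), lin-46 (596), lin-66 (1145), lin-14 (1263), lin-28 (2120), lin-29 (2448), lin-41 (6192) and hbl-1 (8703). The highest candidate in each replicate's own list gave another order. In replicate 1 it was lin-42 (rank 222), lin-66 (542), lin-46 (686), lin-14 (1418), lin-29 (2383), lin-41 (2450), lin-28 (2868) and hbl-1 (5850). In replicate 2 it was lin-66 (rank 386), lin-42 (607), lin-46 (793), lin-29 (888), lin-14 (1044), hbl-1 (3032), lin-41 (3155) and lin-28 (3447). lin-28 stood above lin-29 and lin-41 in the pool and below both in each replicate. lin-42, lin-46 and lin-66 held the 3 highest places in all 3 lists, and the order among them and among the other 5 genes differed between lists. The protein-coding genes closest to lin-42 in best rank over the 2 replicates were K02C4.2, K02C4.5 and gpcp-2, at a Euclidean distance of 0.0478 on log10 ranks. All 3 had rank 245 in replicate 1 and 578 in replicate 2, and all lie near each other on chromosome II.

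Candidates of any strength were more closely spaced at these genes than over the genome. The windows of the 8 genes covered 161.4 kb, or 0.161% of the genome, and held 93 pooled summits, 57.6 per 100 kb against 29.9 per 100 kb over the genome, a ratio of 1.93. Among the 5000 highest pooled candidates the ratio was 2.86 (23 summits), and among the 945 highest it was 1.97, which rests on 3 summits. lin-14 and lin-42 held 25 and 19 of the 93 summits, and 6 and 7 of the 23. lin-41 and hbl-1 held 0 of the 23. None of these ratios is matched for gene length. Replicate 1 had 93 summits in the windows and replicate 2 had 91, with ratios of 1.93 and 1.88. Each of the 8 genes, from 0.42 per kb at lin-46 to 0.82 at lin-14, was above the median of 0.28 per kb over the windows of all protein-coding genes, and 28.8% of these genes exceeded lin-46.

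By position, 34 of the 93 pooled summits lay in introns of the members, 15 in coding exons, 8 in 3′ and 2 in 5′ untranslated regions, 19 in the upstream and 15 in the downstream flank. The member's own 5′ end was the nearest of any protein-coding gene for 56 of the 93. A pooled candidate stood in the promoter window of 6 members (lin-14, lin-28, lin-42, lin-46, lin-66 and hbl-1), against 32.7% of all protein-coding genes. With the 5′ ends of every transcript, 7 members had one. The count of 6 includes candidates near the bottom of the list, with rank 17942 as the highest in the window of lin-42 and 27989 in that of hbl-1.

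**Figure D3:**
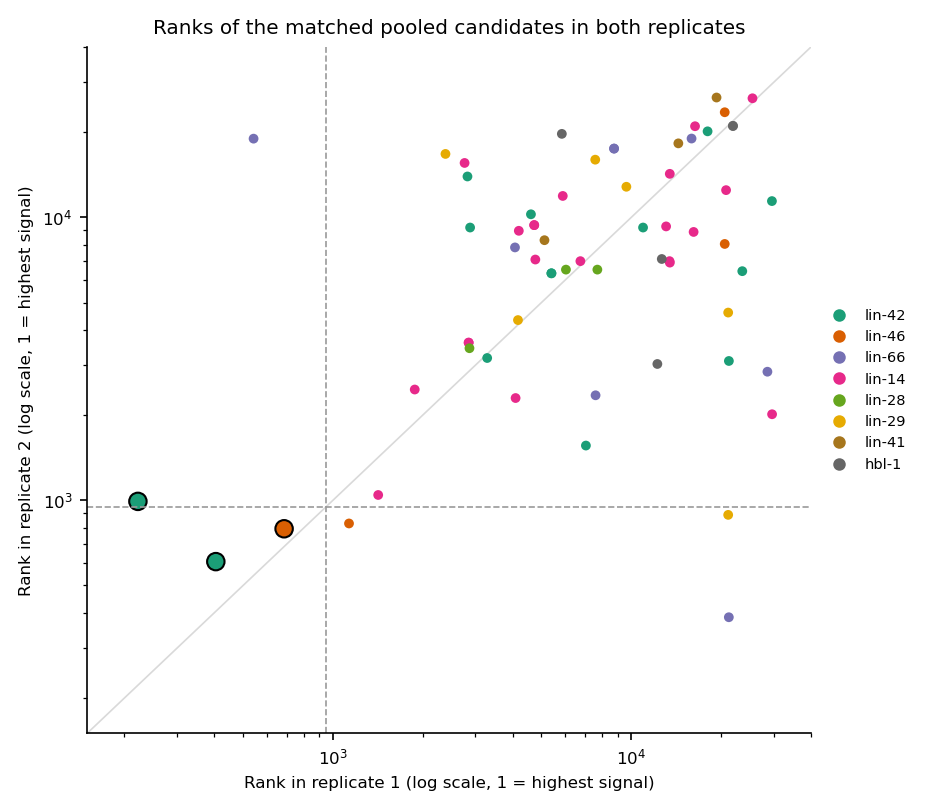
Rank in replicate 2 (vertical axis) against rank in replicate 1 (horizontal axis), both log scale with 1 as the highest, for the 64 pooled candidates of the 8 genes overlapped by intervals of both replicates. Large points with a black edge are the 3 thresholded sites, dashed lines mark rank 945, and the 2 lin-66 candidates with ranks 542 and 18973 and with 21224 and 386 stand far from the diagonal.

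How many candidates of the members were found by both replicates depended on the rule of matching. Of the 93 pooled candidates, 64 (68.8%) were overlapped by at least 1 bp by an interval of each replicate, against 56.7% of all 30000, and the other 29 by an interval of 1 replicate. These shares are not matched for rank, as 42 of the 93 were among the 10000 highest of the 30000 pooled candidates. The 64 became 30 where summits had to lie within 100 bp, and 32 where only the 10000 highest candidates were used. The share over all 30000 is given for the 1 bp rule only, so these stricter counts have no background beside them. Because neighbouring candidates can overlap the same interval, the 64 stand for 59 different pairs. Across the 64, which share their control and partly their intervals, Spearman's rho between the ranks was 0.28, given as a description. The shares by gene ran from 3 of 8 at lin-41 to all 8 at lin-66, and at lin-66 the rank ratio between replicates ran from 1.19 to 55 over its 8 candidates. In all, 2 members had a candidate among the 945 highest of both replicates, lin-42 and lin-46.

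Beyond the 8 genes, thresholded SPR-3 sites stood near other genes of the pathway. A list of 34 regulators, cofactors and downstream genes was written from general knowledge of the pathway, with earlier results of these data known. Its shares are therefore not read as an independent measure of enrichment. Of these, 15 (44.1%) had a thresholded summit in the gene body and 5 kb on either side, 8 of them (23.5% of 34) in the promoter window. Of the 27 that are protein-coding, 11 (40.7%) had one in the wider window and 7 (25.9%) in the promoter window, against 12.1% and 2.83% of all protein-coding genes. Their median body of 6297 bp also exceeded that of all protein-coding genes, and genes of over 5 and up to 15 kb had one in 15.7% of cases. Of the 15 genes, 8 had their site among the 945 highest of both replicates, and these 8 genes stand for 7 sites, since mir-241 and mir-48 share 1. Of the 11 protein-coding genes, 7 were the nearest protein-coding gene to their site by 5′ end, and nhl-2 (nearest tag-340), mab-3 (pno-1), dre-1 (hpo-26) and daf-12 (F13E6.2) were not. No test was made, and the list is described only by these counts.

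By role, a thresholded summit stood in the window of 3 of 6 microRNA genes, 3 of 7 microRNA cofactors, 2 of 3 steroid hormone genes, 3 of 9 oscillating regulators, 3 of 6 cofactors of the 8 genes and 1 of 3 downstream genes. The share over all protein-coding genes was 12.1%, and none is given for microRNA or other noncoding genes. Of the microRNA genes, mir-48 and mir-241 share a site, and that of mir-237 lies within 200 bp of tRNA genes. The groups are small and were not compared. The microRNA cofactors without a thresholded summit were alg-1, alg-2, ain-2 and dcr-1, and the oscillating regulators without one were nhr-23, nhr-25, nhr-85, blmp-1, myrf-2 and pan-1. The 3 highest sites were those of nhl-2, puf-9 and ain-1. nhl-2, whose TRIM-NHL product aids microRNA repression, had a site 809 bp upstream with a pooled signal of 402.8 (rank 68), a signal of 216.8 in replicate 1 (rank 67) and 181.2 in replicate 2 (rank 89). That summit lay closer, at 614 bp, to the start of tag-340. puf-9, which encodes a Pumilio-type RNA-binding protein that acts on hbl-1, had a site 274 bp upstream (295.9, rank 140, with ranks 130 and 192 in replicates 1 and 2). ain-1, which encodes a GW182-type partner of Argonaute, had one 907 bp upstream (214.1, rank 331, with ranks 240 and 435). These 3 sites ranked within the 945 highest of each replicate, above both lin-42 sites in the pool.

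Next by pooled rank came din-1, kin-20, myrf-1 and lep-2. din-1, which encodes a corepressor of the steroid receptor DAF-12, had 3 thresholded summits, the highest 615 bp upstream (185.2, rank 464, with ranks 326 and 397). kin-20, the casein kinase gene that partners lin-42, had an intronic site (184.8, rank 467) with rank 2261 in replicate 1 and rank 240 in replicate 2. myrf-1, which encodes a membrane-bound transcription factor of the lin-4 switch, had one 370 bp upstream (179.5, rank 501, with ranks 820 and 391). lep-2, which encodes a Makorin that lowers LIN-28, had a site (173.2, rank 553) far higher in replicate 2 (rank 356) than in replicate 1 (rank 9448), and lep-5, a noncoding RNA gene, had the opposite (165.5, rank 607, with rank 272 in replicate 1 and rank 5527 in replicate 2).

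The highest thresholded sites of the remaining genes were those of mab-3 (166.3, rank 599), xrn-2 (164.9, rank 612), mir-241 and mir-48, which share 1 site (161.1, rank 643), mir-237 (160.0, rank 655), daf-12 (147.0, rank 804) and dre-1 (140.1, rank 907). xrn-2 had 2 thresholded summits in its window. Ranks in replicates 1 and 2 were 562 and 496 for mab-3, 1678 and 350 for xrn-2, and 987 and 616 for mir-237. They were 2872 and 531 for daf-12, and 970 and 2183 for dre-1. The mir-241 site lay 450 bp upstream of that microRNA gene and ranked 766 and 572 in replicates 1 and 2. The sites in the windows of mir-237 and daf-12 lay within 200 bp of tRNA genes, and the mir-237, mab-3 and daf-12 summits were downstream of the gene bodies. lin-4 and let-7 had no thresholded site: their highest pooled candidates had rank 1313 for lin-4, in its promoter window, and rank 1179 for let-7, outside it.

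**Figure D4:**
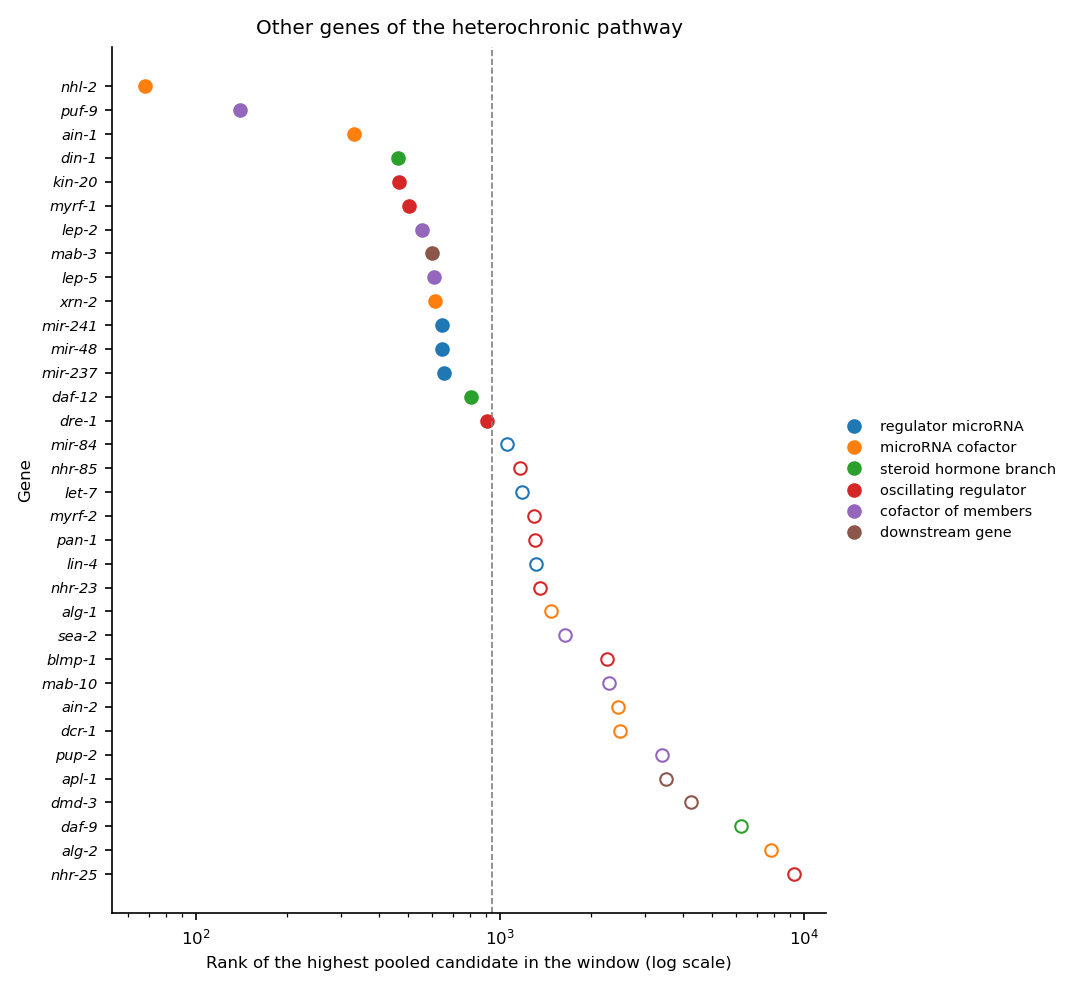
Rank of the highest pooled candidate in the gene body and 5 kb either side (horizontal axis, log scale) for each of 34 further pathway genes (vertical axis), coloured by role. Filled points have a thresholded summit in the window, open points none, and the dashed line marks rank 945. Filled points run from nhl-2 (rank 68) to dre-1 (rank 907).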

How the data were processed

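ChIP-seq intervals of GFP-tagged SPR-3 in 2 biological replicates of L4 larvae were used as deposited, in 4 narrowPeak lists on ce11. The signal column holds, per the notes deposited with the files, values that the authors' pipeline made from each alignment and 1 shared control. A −log10 q-value was deposited for every interval. It is quoted for some candidates and entered no rank or count here. A deposited offset places the summit. Which aligner and peak caller were run, in which version, and at what IDR cutoff, is not given in the sources used. All intervals fitted within the WBcel235 chromosomes. Depth is unknown, so no counting interval is given.

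Summits were counted with Python 3.11.15, pandas 2.3.3 and numpy 2.4.6 in gene bodies and 5 kb either side (Ensembl release 115), in promoter windows (1000 bp upstream to 200 bp downstream), and over all protein-coding genes as background. Ranks were by signal within each list. A pooled candidate was matched to the overlapping replicate candidate (at least 1 bp) with the nearest summit. let-7 was matched through RefSeq by its coordinates on the same build. Window counting was tested on simulated data. The members and lists were chosen with earlier results of these data known, and no test was made. Named were the 3 highest pooled candidates and every thresholded summit of each member, the 3 genes closest to the top member in best rank, and the pathway genes with a thresholded summit or among the 5 highest promoter candidates. lin-4, let-7 and the pathway genes without a thresholded summit were named outside this rule after their values were seen. So were the lin-14 snoRNA candidate and the promoter candidates of lin-42, lin-29 and lin-41. Sequences were read from the RefSeq genome.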

Additional observations from a re-analysis of the deposited data

How the results depend on the processing

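Of 32 alternative settings for the counts, 25 stayed within 1.5 times the reported count and 7 did not. The count of 2 members with a thresholded summit fell to 1 (lin-42) among thresholded sites above their median signal, and was 4 without replicate 1 and 3 without replicate 2, each with the 945 highest candidates of the remaining replicate. lin-66 was added in both cases, by summits at different places, and lin-29 without replicate 1, by a summit within hmg-12. The matching counts of summits, an alternative chosen after seeing the data, were 5 and 4, against 3. The 93 pooled candidates became 56 among pooled candidates above the median signal, and the 64 found by both replicates became 30 with summits within 100 bp and 32 among the top 10000, as the stricter rules keep fewer. Thresholded summits per Mb of window, 18.6 as reported against 9.42 over the genome, were 30.8 with a flank of 1 kb, as the same 3 summits lay in shorter windows. A 10 kb flank brought a thresholded summit into the window of lin-66 (signal 164) and raised the highest signal for hbl-1 to 111, against 72.0. Unknown depth limits any statement on absent sites.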

Other observations

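lin-66 lies among piRNA genes of chromosome IV, with 47 of them in its window, and 3 of its 8 pooled candidates lay within 200 bp of one. They had signals of 77.5, 60.1 and 45.6 (ranks 6777, 14841 and 27499), below the 3 highest candidates of the gene. How much of the window lies that close to a piRNA gene is not given, so 3 of 8 is not read as a preference for them. The promoter window of lin-14 held a second pooled candidate, 21 bp upstream of the 5′ end, of signal 43.9 and rank 29374. Its summit window held GAGACGCA, which occurred at 3 of the lin-42 candidates (ranks 384, 2694 and 6844).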
